A study of Mus musculus with 10 samples.

Results

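The Kif1c tail and the Kif1bα tail were compared directly in Neuro2a (N2A) cells, a mouse neuroblastoma line that puts out neurites when serum is withdrawn. The comparison rests on 4 of the 10 libraries of the series: Kif1c tail soma, Kif1c tail neurite, Kif1bα tail soma and Kif1bα tail neurite. Of the 13698 genes in the table, 9853 had a mean of at least 5 TPM, the level of a transcript per unit of length scaled to the library, over the 10 libraries and were compared, 9462 of them protein-coding and 391 noncoding.

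Cells on membranes with fine pores spent 24 h in serum and 48 h without it while neurites grew through, after which cell bodies and neurites were collected apart, the wells of a plate were combined, and 300 ng of total RNA per sample was depleted of ribosomal RNA and sequenced. Every library came from transiently transfected cells, so each sample also holds whatever share of cells took up no plasmid. The tails lack the motor domain and stand behind EGFP in a pEGFP-C1 vector with a viral promoter that is active in most cell types. The other transfections, used here as points of reference, were the Kif1bβ tail and the plasmids labelled DMPKS and DT480, which carry part of the DMPK gene without and with an expanded run of CTG repeats.

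Kif1c and Kif1b are kinesin-3 motors, which walk toward the plus ends of microtubules, where the motor domain pulls and the tail holds the cargo. A tail without a motor can occupy cargo and adaptors and so act as a dominant negative. Alternative last parts of Kif1b give the Kif1bα form, known for carrying mitochondria, and the Kif1bβ form, known for precursors of synaptic vesicles. Kif1c is known for carrying dense core vesicles, integrins and certain messenger RNAs of cell protrusions.

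There was 1 library per transfection and fraction, so no difference below has a replicate check and no p-value is given. The spread among the other 3 transfections is set beside the values in its place, although those cells held other plasmids. A soma or neurite log2 ratio is log2 of TPM plus 0.1 with the Kif1c tail minus the same with the Kif1bα tail in that fraction. The localization ratio of a gene is log2(neurite/soma) within a transfection, and the localization difference is that of the Kif1c tail minus that of the Kif1bα tail. It equals the neurite log2 ratio minus the soma log2 ratio.

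The library facts were as follows. Gene rows summed to 1044110 to 1159190 TPM in soma and to 849069 to 887258 TPM in neurites, and noncoding RNAs took 33.0 to 38.5% of the soma sums and 24.6 to 27.8% of the neurite sums. No count is given, so the depth of each library is unknown. Of 21 markers of neuroblastoma and sympathetic neurons, 15 were measured at the minimum of 5 TPM, with a summed level of 2846 to 3238 TPM. Of the lists for glia (14 genes), fibroblasts (11 genes) and blood, endothelium and muscle (14 genes), 1 gene each reached that minimum, and the lists summed to 77.9 to 165 TPM in any library.

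The tail plasmid sequences matched the labels. The Kif1c tail plasmid stood at 24312 TPM in its soma library and 21606 TPM in its neurite library, and at no more than 26.7 TPM in any of the other 8. The Kif1bα tail plasmid stood at 16106 TPM in its soma library and 13918 TPM in its neurite library, and never above 28.8 TPM elsewhere. The Kif1c tail was thus the higher of the pair, 1.51 times in soma and 1.55 times in neurites. Both tail RNAs were a little lower in neurites than in soma, by a localization ratio of −0.17 for the Kif1c tail and −0.21 for the Kif1bα tail. Results below were not adjusted for this gap in plasmid level, and the tail and its dose cannot be told apart. A separate pEGFP-C1 sequence stood at 1.41 to 25.4 TPM with this pair and at 788 to 2371 TPM in the other transfections. The Kif1bβ tail plasmid stood at 3269 TPM in its soma library and 3454 TPM in its neurite library. The reference transfections thus differed from the pair in plasmid content and level too.

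Most genes differed little between the tails. These are bulk samples, in which fewer cells of a kind and less RNA per cell cannot be told apart. The soma log2 ratio had a median of −0.0031 and lay between −0.22 and 0.22 for the middle 80% of genes, and the neurite log2 ratio had a median of 0.0017 and lay between −0.23 and 0.22. The authors put the TPM through cyclic loess, which evens out general shifts between libraries. Small medians follow from that step and say little about the tails. At a 2-fold difference, 43 genes were higher with the Kif1c tail in soma (0.436% of the genes compared) and 36 were lower (0.365%). In neurites 20 genes were higher (0.203%) and 40 were lower (0.406%). Noncoding RNAs made up much of this tail of the distribution: the SD of the soma log2 ratio over genes was 0.71 for noncoding and 0.22 for protein-coding genes.

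The fractions of a transfection did not move together gene by gene. Past 0.25 on the log2 scale, a 1.19-fold difference, 120 genes were higher with the Kif1c tail in both soma and neurites (1.22%) and 126 were lower in both (1.28%). At that size 814 genes were higher (8.26%) and 800 lower (8.12%) in soma, whatever their neurite level, and 757 (7.68%) and 849 (8.62%) in neurites. Slightly more genes, 250 against 246, differed in opposite directions: 120 were higher in soma and lower in neurites (1.22%), and 130 the reverse (1.32%). At a 2-fold difference 2 genes were higher in both fractions (0.0203%), 5 were lower in both (0.0507%), 6 were higher in soma and lower in neurites (0.0609%) and 5 the reverse (0.0507%). Across the 9853 genes Pearson's r between the soma and the neurite log2 ratio was 0.0021, and it ran from −0.075 to 0.076 for the other 9 pairs of transfections. Genes are not independent replicates, and both ratios rest on separately prepared fractions of the same cells. The spread of this pair was not unusual among the 10 pairs: its SD of the localization difference over genes was 0.36, and 6 of the other 9 pairs had a larger one.

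**Figure D1:**
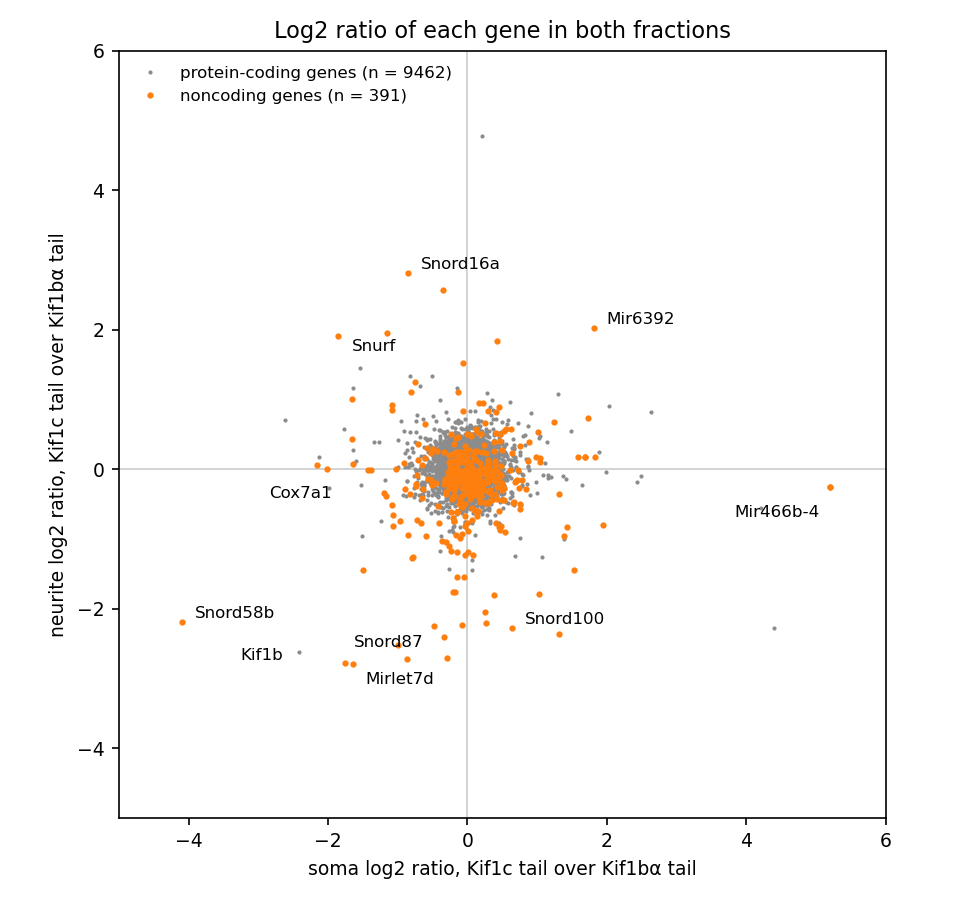
Each point is 1 of 9853 genes, with the soma log2 ratio (Kif1c tail over Kif1bα tail) on the x axis and the neurite log2 ratio on the y axis. The cloud is round about 0, Kif1b lies at −2.42 and −2.62, and most of the far points are noncoding RNAs.

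The kinesin-3 genes were led by Kif1b itself. Kif1b (chromosome 4, 149176319 to 149307693 on the minus strand of GRCm38) stood at 386 TPM in soma and 363 in neurites with the Kif1bα tail, against 72.2 and 59.2 TPM with the Kif1c tail. The other 3 transfections held 61.9 to 68.5 TPM in soma and 54.1 to 57.9 TPM in neurites. The Kif1bα tail libraries were thus the only high ones in both fractions, and the log2 ratio was −2.42 in soma and −2.62 in neurites. The difference sat on 1 of the 2 Kif1b transcripts in the table, NM_001290995, at 378 TPM in soma with the Kif1bα tail and 61.9 TPM with the Kif1c tail. The other, NM_008441, stood at 7.58 and 10.2 TPM. Reads of the tail plasmid that were assigned to the Kif1b transcript and a change of the cell's own Kif1b RNA cannot be told apart in these values.

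Kif1c (chromosome 11, 70700548 to 70731964 on the plus strand) was lower, not higher, in cells that received the Kif1c tail. With the Kif1c tail it stood at 10.3 TPM in soma and 13.6 in neurites, with the Kif1bα tail at 12.6 and 16.7 TPM, and in the other transfections at 11.6 to 12.8 and 16.5 to 18.8 TPM. The Kif1c tail libraries were the lowest of the 5 in each fraction, with log2 ratios of −0.28 and −0.29. Kif1c reads that were assigned to the tail plasmid sequence and a change of the cell's own Kif1c RNA cannot be told apart in these values. Of the other measured family members, Kif13b had log2 ratios of −0.21 and −0.09, Kif13a −0.15 and 0.01, and Kif14, a mitotic kinesin, 0.08 and 0.10.

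Among the 25 measured partners of these tails, none passed 0.25 in both fractions. Over all genes 1.22% were higher and 1.28% lower in both, so this count does not set the list apart. Rab3a, a GTPase of synaptic vesicles, had the largest localization difference of the list, 0.89. It stood at 9.45 TPM in soma and 14.5 in neurites with the Kif1c tail and at 17.0 and 14.0 TPM with the Kif1bα tail, and of these only the Kif1c tail soma level lay outside the range of the other transfections, 12.6 to 17.5 TPM in soma and 13.1 to 17.0 in neurites. Hook2, of the Hook family of dynein adaptors, had a localization difference of −0.45. Kif1bp, which binds several kinesin motors, had log2 ratios of 0.25 in soma and 0.11 in neurites, and Dennd1a, a Rab exchange factor, −0.10 and −0.07.

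**Figure D2:**
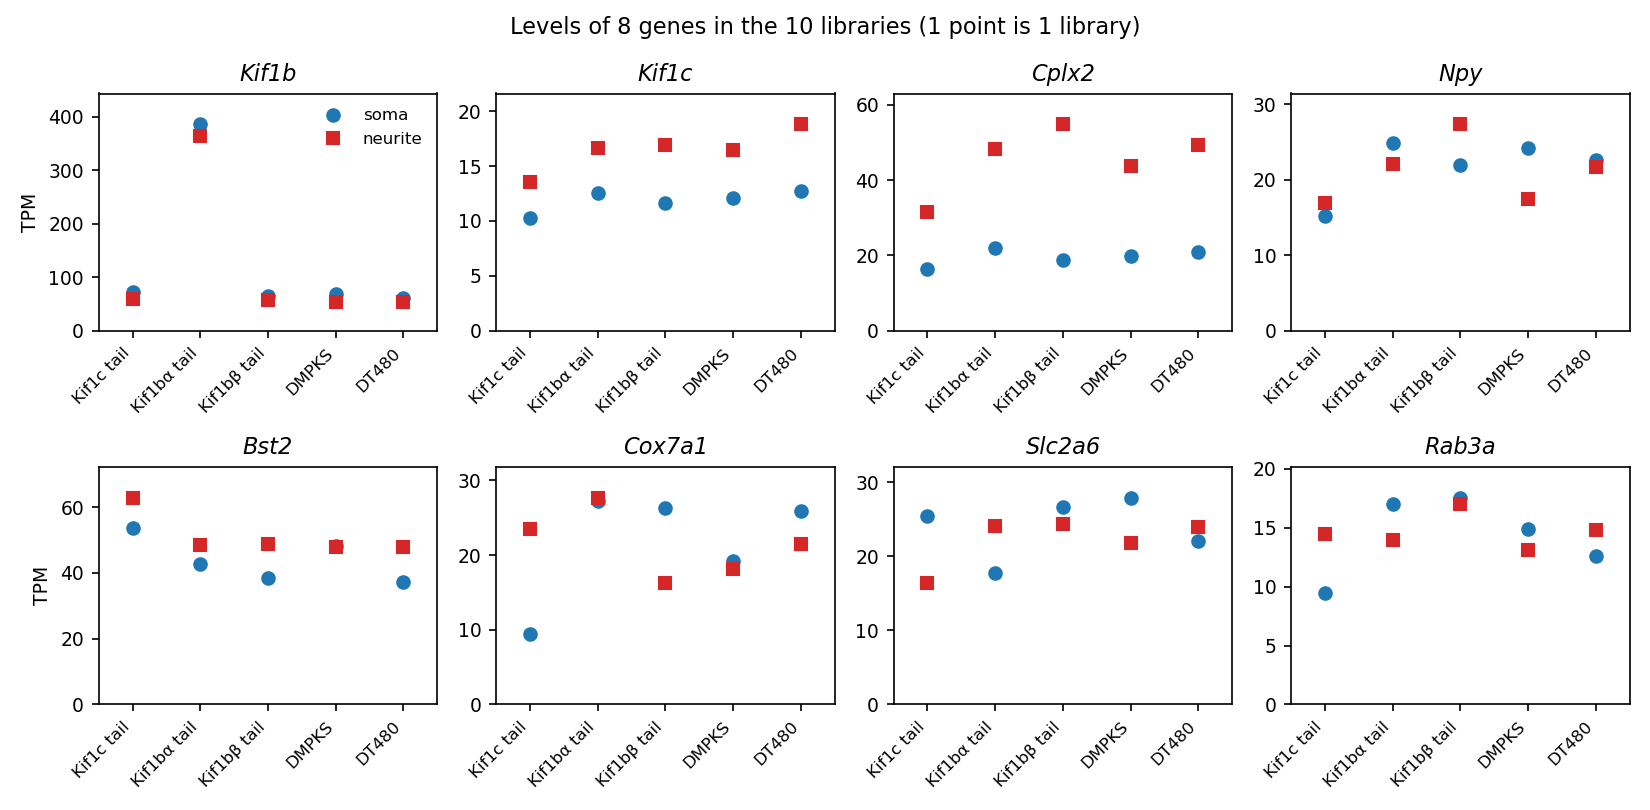
TPM (y axis, from 0) of 8 genes in the 10 libraries, soma as circles and neurites as squares, by transfection on the x axis. Kif1b is high only with the Kif1bα tail, Bst2 is highest with the Kif1c tail in both fractions, and the soma levels of Cox7a1 and Rab3a are lowest with the Kif1c tail.

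Genes with a mean of at least 20 TPM were named by the smaller of their soma and neurite log2 ratios. After Kif1b, the protein-coding genes lowest with the Kif1c tail were Cplx2, Pcbd2, Ace, Npy, Jagn1, Park2, Lrrn3, Ypel3 and Erp44, with smaller ratios from −0.42 to −0.28. Cplx2, which makes complexin 2 of the vesicle release machinery, stood at 16.4 TPM in soma and 31.4 in neurites with the Kif1c tail and at 21.9 and 48.2 TPM with the Kif1bα tail. The other transfections held 18.7 to 21.0 and 43.7 to 54.7 TPM, so the Kif1c tail libraries were the lowest of 5 in both fractions.

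Npy, a neuropeptide carried in dense core vesicles, stood at 15.3 and 17.0 TPM with the Kif1c tail and at 24.8 and 22.0 TPM with the Kif1bα tail. The Kif1c tail was the lowest of 5 in both fractions here too, and also for Pcbd2 and Jagn1, although the Npy neurite level in DMPKS, 17.4 TPM, was close. For Lrrn3, Ypel3 and Erp44, an ER thioredoxin, it was the Kif1bα tail that was the highest of 5 in both fractions. Ace and Park2, the gene of the ubiquitin ligase parkin, lay within the range of the other transfections for at least 1 tail in each fraction.

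The protein-coding genes highest with the Kif1c tail were Bst2, 0610010K14Rik, Fen1, Gadd45g, Sh3bp5l, Cep55, Senp3, Hist1h3b, Exosc9 and Bola2, with smaller ratios of 0.25 to 0.33. Bst2, an interferon-induced protein that tethers virus particles, stood at 53.7 TPM in soma and 62.8 in neurites with the Kif1c tail. It stood at 42.6 and 48.4 TPM with the Kif1bα tail and at 37.3 to 48.2 and 47.8 to 48.9 TPM in the others, so the Kif1c tail was the highest of 5 in both fractions. The same held for Exosc9, a subunit of the RNA exosome, at 27.1 and 29.9 TPM against 20.6 and 24.9 TPM with the Kif1bα tail.

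Gadd45g, Sh3bp5l, Senp3 and Bola2 were instead lowest of 5 in both fractions with the Kif1bα tail. Fen1, the flap endonuclease of DNA replication, stood at 29.7 and 34.1 TPM with the Kif1c tail and at 24.0 and 24.7 TPM with the Kif1bα tail, while its neurite level reached 35.6 TPM in DMPKS. Hist1h3b shares 61.9% of its 31-base words with other genes of the table, so its reads may be split among histone genes. Of the genes under 20 TPM, Trmt2b, a tRNA methyltransferase named after its values were seen, was the only protein-coding gene at least 2-fold higher in both fractions, at 8.19 and 6.70 TPM against 3.27 and 3.12 TPM.

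Being the extreme of 5 in both fractions was common. The Kif1c tail was highest in both for 413 genes (4.19%) and lowest for 399 (4.05%), and the Kif1bα tail was highest for 479 (4.86%) and lowest for 484 (4.91%). This position alone is therefore not particular to the genes named above.

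The localization difference passed 0.25 for 1430 genes toward neurites with the Kif1c tail (14.5%) and for 1549 genes toward soma (15.7%). The balance between these counts depends on the scaling: with every column scaled to the same total the counts were 1824 and 1233. A difference of at least 1 was seen for 65 genes toward neurites (0.66%) and 86 toward soma (0.873%), of which 23 (5.88% of noncoding genes) and 45 (11.5%) were noncoding and 42 (0.444% of protein-coding genes) and 41 (0.433%) protein-coding.

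Slc2a6, a glucose transporter family member, led the protein-coding genes of at least 20 TPM toward soma, with a localization difference of −1.07. It stood at 25.4 TPM in soma and 16.4 in neurites with the Kif1c tail and at 17.8 and 24.1 TPM with the Kif1bα tail. The other 3 transfections ran from 22.1 to 27.9 and from 21.8 to 24.4 TPM, so the low libraries were the Kif1c tail neurites and the Kif1bα tail soma. Hadhb, of mitochondrial fatty acid oxidation, Rangrf, Dgat1, which makes triglycerides, Hist1h2ap, Ndufaf8, Commd5, Luc7l, Pigv and Syp, the synaptic vesicle protein synaptophysin, followed with −0.89 to −0.69. Hist1h2ap shares 93.4% of its 31-base words with other genes, and its level is uncertain.

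Syp stood at 28.5 TPM in soma and 20.7 in neurites with the Kif1c tail and at 23.6 and 27.7 TPM with the Kif1bα tail. Its neurite level with the Kif1c tail lay below the 26.3 to 29.7 TPM of the other transfections, while its other 3 values lay within theirs. For Rangrf the low library was the Kif1bα tail soma, at 15.0 TPM, with 20.8 to 25.8 TPM in the other 4 soma libraries.

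Toward neurites with the Kif1c tail, the largest value among protein-coding genes of at least 20 TPM belonged to Snurf, at 2.99. Snurf stood at 10.8 TPM in soma and 32.3 in neurites with the Kif1c tail and at 31.7 and 11.8 TPM with the Kif1bα tail. All of its 31-base words also occur in Snrpn, which shares its transcript on chromosome 7 and had the opposite values, 20.1 and 4.45 TPM against 0.863 and 21.9 TPM. The sum of Snurf and Snrpn was 30.9 and 36.7 TPM with the Kif1c tail and 32.6 and 33.6 TPM with the Kif1bα tail, a localization difference of 0.20. In each of the 10 libraries 1 entry of this pair was high where the other was low, and the sum differed far less than either.

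Cox7a1, a subunit of cytochrome c oxidase, came next with 1.29 and shares no 31-base word with another gene. It stood at 9.39 TPM in soma and 23.5 in neurites with the Kif1c tail and at 27.2 and 27.6 TPM with the Kif1bα tail. The other transfections held 19.2 to 26.3 and 16.2 to 21.5 TPM, so 1 library, the Kif1c tail soma, was low, and the Kif1bα tail was the highest of 5 in both fractions. Spc25, of the kinetochore, Agfg2, Scand1, Cyb5a, which makes cytochrome b5, Acot13, Phf23, Timm8a1, of mitochondrial import, and Gm14288 followed with 0.72 to 0.89. Gm14288 shares 99.9% of its 31-base words with other genes.

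Several lists with membrane or secretory products leaned toward soma with the Kif1c tail, but not all: the 35 synaptic vesicle and SNARE genes had a median localization difference of 0.03, with 2 past 0.25 and 4 past −0.25. Of 22 measured genes for integrins, focal adhesions and matrix, 11 had a localization difference past −0.25 (15.7% over all genes) and none past 0.25 (14.5%), and the median was −0.26 against −0.00021 over all genes. The soma log2 ratio of the list had a median of 0.00087 and the neurite log2 ratio −0.25, so the difference came from the neurite libraries. Col4a2, a collagen IV chain, stood at 386 TPM in soma and 251 in neurites with the Kif1c tail and at 358 and 308 TPM with the Kif1bα tail. Itga8, an integrin subunit, had a localization difference of −0.42. Col6a1, a collagen VI chain, had log2 ratios of −0.24 in soma and −0.18 in neurites, and Pxn, the focal adhesion protein paxillin, 0.15 and 0.36.

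Which tail stood apart was not the same for every member. In neurites the Kif1c tail was the lowest of 5 transfections for 12 of the 22 genes (21.0% over all genes) and the Kif1bα tail was the highest for 12 (21.4% over all genes). Itgb1, the integrin β1 subunit, and Fn1, fibronectin, were named after their values were seen. Itgb1 stood at 319 TPM in Kif1bα tail neurites and at 270 to 275 TPM in the other 4 neurite libraries, with 392 to 416 TPM in every soma library. Fn1 stood at 144 TPM in Kif1bα tail neurites and at 92.7 to 114 TPM in the other 4. For both genes the Kif1bα tail neurites were the high library, and the Kif1c tail lay with the rest.

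The 46 measured ER chaperones and translocon genes had a median localization difference of −0.16, with 12 past −0.25 and 1 past 0.25. Over all genes these shares were 15.7% and 14.5%. In neurites the Kif1c tail was the lowest of 5 for 26 of them (21.0% over all genes) and the Kif1bα tail the highest for 28 (21.4%). Dad1, of the oligosaccharyl transferase, stood at 69.0 and 62.9 TPM with the Kif1c tail and at 70.6 and 85.7 TPM with the Kif1bα tail. Sdf2l1 was the member past 0.25, at 0.54. Ssr4, of the translocon, was lower with the Kif1c tail in both fractions, with −0.19 in soma and −0.32 in neurites, and Dnajb11, a chaperone of the ER lumen, had −0.18 in both.

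Dense core vesicle cargo, the best known load of Kif1c, had a median localization difference of −0.18 over 13 measured genes. Of these, 4 were past −0.25 (15.7% over all genes) and 1, Npy, was past 0.25 (14.5%). All 13 had a negative neurite log2 ratio, whereas 4966 of all 9853 genes had a positive one. Pcsk1n, an inhibitor of a prohormone convertase, stood at 59.3 TPM in soma and 48.3 in neurites with the Kif1c tail and at 48.3 and 55.9 TPM with the Kif1bα tail. Vgf, a neuropeptide precursor, stood at 413 and 256 TPM against 371 and 297 TPM, and the other 3 neurite libraries at 311 to 325 TPM, so both tails were low there. Chgb, which makes chromogranin B, had log2 ratios of −0.06 and −0.20. In neurites the Kif1c tail was the lowest of 5 for 8 of the 13 (21.0% over all genes) and the Kif1bα tail the highest for 4 (21.4%).

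Of the families read from gene symbols after the data were seen, solute carriers and Tmem genes leaned the same way. Rab GTPases and Zfp genes did not, with median localization differences of 0.13 and 0.01. Of 147 solute carriers, 49 had a localization difference past −0.25 (15.7% over all genes) and 12 past 0.25 (14.5%), with a median of −0.12. Of 115 Tmem genes, 34 were past −0.25 and 14 past 0.25, the latter near the 14.5% of all genes, with a median of −0.10. The 24 measured genes of cholesterol synthesis and uptake, whose enzymes sit largely in the ER membrane, had 7 past −0.25 and none past 0.25, with −0.58 for Mvk, which makes mevalonate kinase.

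RNAs that stay in the nucleus also lay below 0, as noncoding genes did in general. All 7 measured nuclear-retained noncoding RNAs had a negative localization difference and a negative neurite log2 ratio, with medians of −0.28 and −0.21. Of all 9853 genes, 4920 had a positive localization difference and 4966 a positive neurite log2 ratio. The medians of all 391 noncoding genes were −0.21 and −0.16, so much of this is not particular to nuclear RNAs. Malat1 stood at 1821 TPM in soma and 1111 in neurites with the Kif1c tail and at 1617 and 1290 TPM with the Kif1bα tail. The median localization ratio of the 7 was −0.33 with the Kif1bα tail and −0.69 to −0.57 in the other 4 transfections. The part of nuclear or cell body RNA in the neurite fraction in the results for membrane and secretory genes was not tested.

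**Figure D3:**
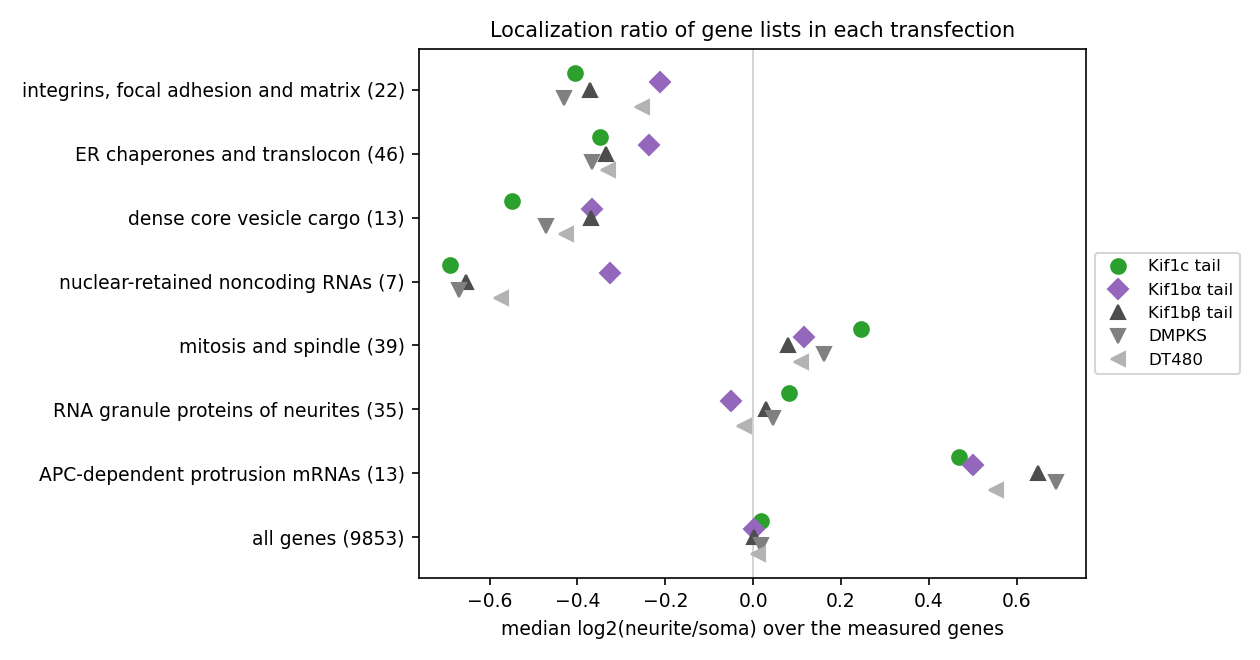
Median localization ratio, log2(neurite/soma), of 7 gene lists and of all genes (x axis) in each of the 5 transfections, with the number of measured genes in brackets. For the nuclear-retained RNAs the Kif1bα tail (−0.33) stands apart from the other 4 (−0.69 to −0.57), while for mitosis and spindle genes the Kif1c tail is the highest at 0.25.

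Set against the other transfections, the ER list had a median localization ratio of −0.24 with the Kif1bα tail, −0.35 with the Kif1c tail and −0.37 to −0.33 in the rest. The integrin and matrix list had −0.21 with the Kif1bα tail and −0.41 with the Kif1c tail, but DT480, at −0.25, lay near the former and DMPKS, at −0.43, near the latter. The dense core vesicle list had −0.37 with the Kif1bα tail, next to that with the Kif1bβ tail, and its lowest value, −0.55, with the Kif1c tail.

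Messenger RNAs of protrusions that depend on APC, a group known to be carried by Kif1c in other cells, had a median localization difference of −0.04 over 13 measured genes, with 5 past −0.25 (15.7% over all genes) and 1 past 0.25 (14.5%). Trak2, an adaptor of mitochondrial transport, had −0.38 and Inpp1, an inositol phosphatase, 0.39. Rab13, a GTPase and the classic member of the group, stood at 18.3 TPM in soma and 31.5 in neurites with the Kif1c tail and at 21.2 and 36.2 TPM with the Kif1bα tail. Its other neurite levels ran from 34.7 to 40.6 TPM, and in neurites the Kif1c tail was the lowest of 5 for 8 of the 13 genes (21.0% over all genes). The group was enriched in neurites in every transfection, with a median localization ratio of 0.47 with the Kif1c tail, 0.50 with the Kif1bα tail and 0.55 to 0.69 in the rest.

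Some lists for the nucleus and the cell cycle had medians above 0, toward neurites with the Kif1c tail. Of 39 mitosis and spindle genes, 10 had a localization difference past 0.25 (14.5% over all genes) and 2 past −0.25 (15.7%), with a median of 0.14 and a neurite log2 ratio of 0.15. Ttk, a kinase of the spindle checkpoint, stood at 14.4 TPM in soma and 20.5 in neurites with the Kif1c tail and at 17.9 and 15.8 TPM with the Kif1bα tail. Mad2l1, of the same checkpoint, had 0.45. Pttg1, which makes securin, and Cdc25c, a mitotic phosphatase, differed alike in both fractions, with log2 ratios of 0.23 and 0.22 for Pttg1 and −0.27 in each for Cdc25c.

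Nucleolar ribosome biogenesis genes had a median of 0.10 over 47 genes, with 7 past 0.25, a share near the 14.5% of all genes, and 1 past −0.25, against 15.7%. The 42 DNA replication genes had a median of 0.07, with 5 past 0.25 and 2 past −0.25, neither above those shares. For the nucleolar genes in neurites the Kif1bα tail was the lowest of 5 for 18 of them (20.9% over all genes) and the highest for none (21.4%). RNA granule proteins of neurites had a median of 0.15 over 35 genes, but 1 gene each was past 0.25 and past −0.25, Gemin2 at 0.43 and Anxa11, a tether of RNA granules to lysosomes, at −0.67. In neurites the Kif1c tail was the highest of 5 for 22 of these 35 (21.0% over all genes). Smn1, of the survival motor neuron complex, had log2 ratios of 0.09 and 0.18 and Hnrnpa2b1 0.09 and 0.11. Of 57 replication-dependent histone genes, 14 were past 0.25 (14.5% over all genes) and 1 past −0.25 (15.7%), with a median of 0.05.

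Other groups had median localization differences close to 0. Over all genes 14.5% were past 0.25 and 15.7% past −0.25. Of 82 cytosolic ribosomal protein genes, 1 was past −0.25 and none past 0.25, with a median of 0.02, although the Kif1bα tail was the highest of 5 for 41 in neurites (21.4% over all genes) and for 32 in soma (22.6%). Of 32 proteasome genes, 2 were past 0.25 and none past −0.25. Their neurite level was the lowest of 5 with the Kif1bα tail for 18 (20.9% over all genes) and the highest for none (21.4%). The 77 nuclear genes of the respiratory chain and ATP synthase, products that go to the mitochondria Kif1bα is known to carry, had a median of 0.0030, with 9 past 0.25 and 5 past −0.25.

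The interferon response and nucleic acid sensing list was higher with the Kif1c tail in most members, with a median soma log2 ratio of 0.14 and a neurite log2 ratio of 0.07 over 22 genes. In soma the Kif1c tail was the highest of 5 for 14 of them (21.3% over all genes) and in neurites for 13 (21.0%). Besides Bst2, Ccl5 passed 0.25 in both fractions and Tmem173, which makes the sensor adaptor STING, passed −0.25 in both, at 3.75 and 5.51 TPM against 7.42 and 9.24 TPM. For Tmem173 the other neurite libraries ran from 3.50 to 7.28 TPM, which covers the Kif1c tail. Isg15 stood at 38.1 TPM in soma with the Kif1c tail and at 29.3 TPM with the Kif1bα tail, but at 44.2 and 49.0 TPM in neurites. The Kif1c tail libraries also held the most plasmid RNA of all, and the part of that in this result was not tested.

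**Figure D4:**
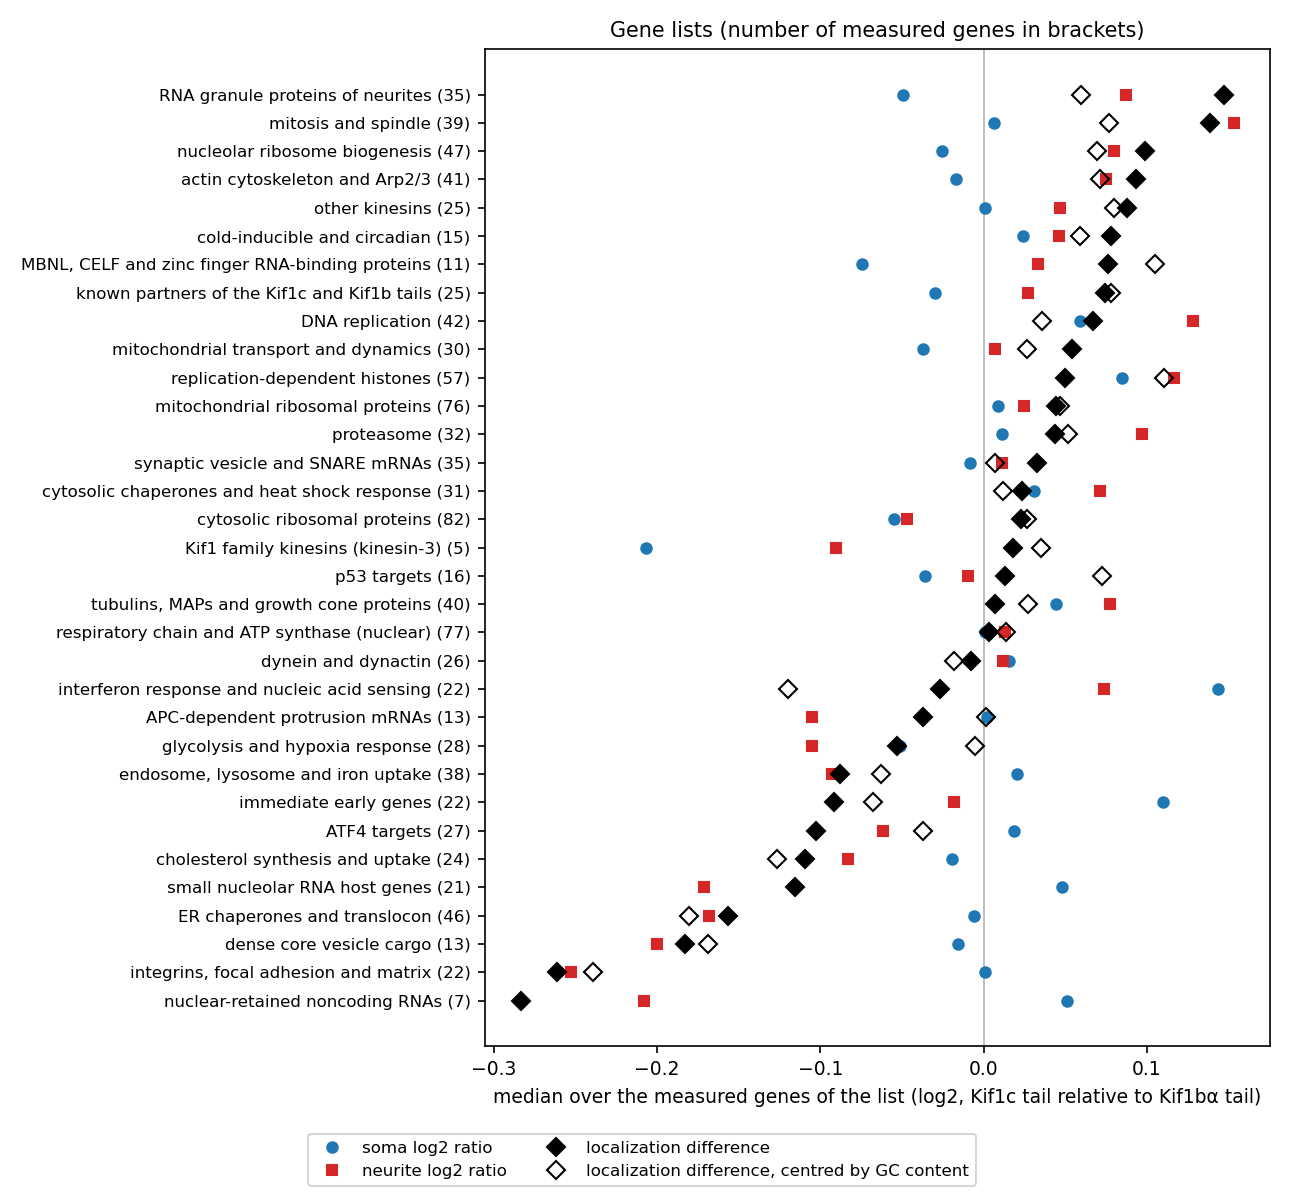
Medians over the measured genes of 33 lists, without marker lists and symbol families (x axis, log2, Kif1c tail relative to Kif1bα tail) of the soma log2 ratio, the neurite log2 ratio, the localization difference and the localization difference after centring by GC content (left out where under 80% of the genes had a model). Among the lists drawn the localization difference runs from −0.28 for nuclear-retained RNAs to 0.15 for RNA granule proteins and follows the neurite ratio more than the soma ratio.

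Base composition went with the comparison. Over 9433 protein-coding genes with a GENCODE model, Spearman's rho with transcript GC content was 0.28 for the soma log2 ratio, −0.13 for the neurite log2 ratio and −0.29 for the localization difference, given as a description across genes. From the quintile lowest in GC (median 42.1%) to the highest (58.6%), the median localization difference went from 0.11 through 0.04, 0.0093 and −0.05 to −0.10. The change between these quintiles was −0.20, and it ran from 0.03 to 0.28 in size for the other 9 pairs of transfections. Coding length showed a smaller trend, from 0.05 in the shortest quintile to −0.04 in the longest.

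**Figure D5:**
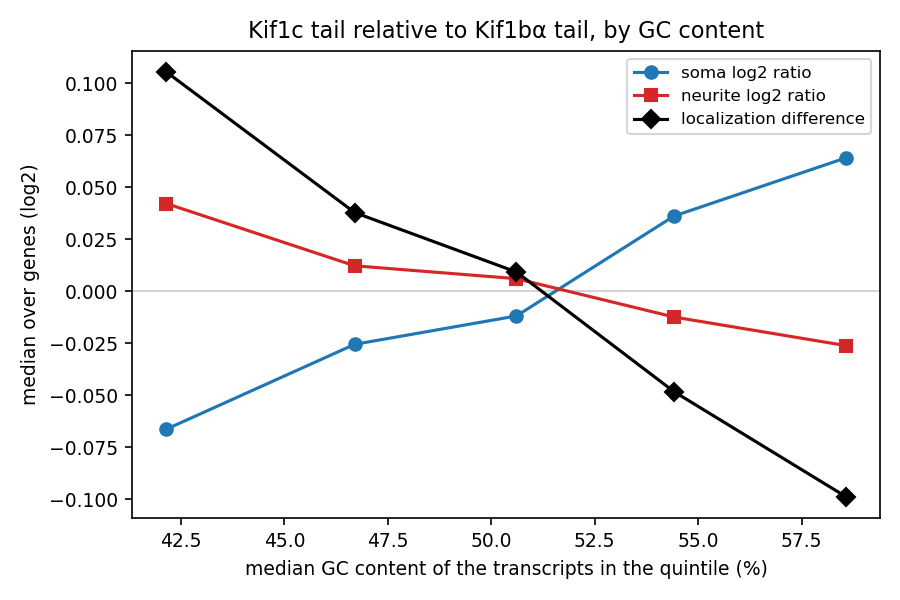
Median soma log2 ratio, neurite log2 ratio and localization difference (y axis, Kif1c tail relative to Kif1bα tail) of protein-coding genes in 5 quintiles of transcript GC content (x axis, median of the quintile in percent). The soma ratio climbs with GC content, the neurite ratio declines, and the localization difference goes from 0.11 to −0.10.

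Centring the ratios within 20 bins of GC content left 1204 genes past 0.25 (12.8%) and 1278 past −0.25 (13.5%) in localization, and the membrane and secretory groups stayed below 0. The median localization difference after centring was −0.24 for integrins and matrix, −0.18 for ER chaperones, −0.17 for dense core vesicle cargo and −0.13 for cholesterol synthesis. It shrank to 0.08 for mitosis and spindle genes and to 0.06 for RNA granule proteins, and grew to 0.11 for histones. YGCY motifs, the sites that MBNL proteins bind, with Y for C or T, were counted on the sense strand in 8915 3′ untranslated regions of at least 100 bases, 98.1% of which hold at least 1. The median localization difference went from 0.05 in the quintile of lowest motif density to −0.06 in the highest, and after GC centring from 0.0043 to −0.0081.

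Apart from Kif1b, most genes the study turned on showed small differences between the tails. Such a difference does not tell whether both tails departed from the other transfections. Mbnl1 stood at 50.9 TPM in soma and 56.9 in neurites with the Kif1c tail and at 59.0 and 56.5 TPM with the Kif1bα tail, and Mbnl2 had log2 ratios of −0.18 and −0.02. For Mbnl1 only the soma level with the Kif1c tail lay outside the 54.0 to 58.5 TPM of the other transfections on the low side, and in neurites both tails lay above their 46.8 to 53.3 TPM. Ncl, which makes nucleolin, had log2 ratios of −0.05 and −0.10. Its localization ratio was 0.13 with the Kif1c tail and 0.18 with the Kif1bα tail. It was 0.51 with the Kif1bβ tail, 0.47 in DMPKS and 0.28 in DT480, so both tails lay below the rest. Canx, the ER chaperone calnexin, had log2 ratios of 0.01 and −0.14, and Tfrc, the transferrin receptor, −0.05 and −0.19. Gapdh, at 2065 to 2466 TPM over the 10 libraries, had 0.05 in soma and stood at 2253 TPM in the neurites of both tails.

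Short noncoding RNAs gave many of the large differences. Their entries are 66 to 238 bases long for the 52 C/D box snoRNAs with a sequence, so few reads stand behind a TPM value, and how many is unknown. The miRNA entries are precursors, and a library of this kind does not measure mature miRNAs. Their mature sequences from RefSeq (GRCm38.p6), available for 5 of the 7 named precursors, are shown to identify the leading loci, 5′ to 3′ with the seed, bases 2 to 8, in capitals.
let-7d-5p: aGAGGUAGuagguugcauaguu
miR-25-3p: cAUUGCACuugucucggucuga
miR-6392-5p: uCUGGCGCccugguccugucagc
miR-5133: gCUGGAGCugcggcagcgcag
miR-8115: cCGCAAUAgcaacaagggcucu
No seed is shared among them. The let-7 seed occurs in 13 of the 1738 mature sequences of the table and the miR-25 seed in 7, and each of the other 3 seeds in 1.

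Mirlet7d (chromosome 13, 48536012 to 48536114, minus strand, in an exon of the noncoding gene 6720427I07Rik) was lower with the Kif1c tail in both fractions. It stood at 12.8 TPM in soma and 10.3 in neurites against 40.2 and 71.7 TPM with the Kif1bα tail. The other soma libraries held 11.1 to 21.8 TPM and the other neurite libraries 24.1 to 71.4 TPM, so the Kif1bα tail was highest in both, by little in neurites. Mir6392 (chromosome 15, 84168270 to 84168377, plus strand, in an intron of Pnpla3) was the reverse, at 132 and 237 TPM against 37.4 and 58.0 TPM. The Kif1c tail was the highest of 5 in both fractions, but the other neurite libraries ran from 62.9 to 117 TPM, and its host gene Pnpla3 had log2 ratios of −0.11 and −0.41.

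Mir5133, in an exon of Glce on chromosome 9, stood at 91.7 and 59.5 TPM against 27.7 and 35.8 TPM, and the Kif1bα tail was the lowest of 5 in both fractions. Mir25, in an intron of Mcm7 on chromosome 5, had opposite signs, at 42.4 TPM in soma and 42.7 in neurites with the Kif1c tail against 14.6 and 116 TPM. Mir8115, in an exon of P2rx7 on chromosome 5, stood at 19.1 and 76.8 TPM against 69.5 and 20.4 TPM, and all of its 31-base words occur in P2rx7, which had log2 ratios of −0.0061 and −0.06. Mir466b-4 and Mir466b-6, in an intron of Sfmbt2 on chromosome 2, have identical sequences and values. They stood at 0.492 TPM in Kif1bα tail soma and 21.7 TPM in Kif1c tail soma, and are listed at 0 in Kif1bβ tail soma and at 18.9 and 26.2 TPM in the other 2 soma libraries.

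Box C/D snoRNAs guide methylation of ribosomal RNA and are cut from introns of ribosomal protein and host genes. Snord87, low with the Kif1c tail in both fractions, Snord100, Snord16a and Snord19, with large localization differences, are shown as DNA from GENCODE (GRCm38), 5′ to 3′, with the first TGATGA, a form of the C box, and the last CTGA, the D box, in capitals.
Snord87: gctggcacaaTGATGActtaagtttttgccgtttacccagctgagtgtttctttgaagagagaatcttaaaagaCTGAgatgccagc
Snord100: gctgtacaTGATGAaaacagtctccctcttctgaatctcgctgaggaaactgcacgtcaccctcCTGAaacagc
Snord16a: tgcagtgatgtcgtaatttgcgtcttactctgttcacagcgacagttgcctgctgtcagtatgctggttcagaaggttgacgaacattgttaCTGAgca
Snord19: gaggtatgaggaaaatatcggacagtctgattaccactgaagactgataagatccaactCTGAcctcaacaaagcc
Read on the strand of the RNA, TGATGA occurs in 67.3% and CTGA in 100% of the 52 C/D snoRNA entries, so neither sets these apart. Snord16a and Snord19 hold no TGATGA.

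Snord87 (chromosome 1, 9942463 to 9942549, minus strand, in an intron of Snhg6) stood at 38.2 TPM in soma and 5.49 in neurites with the Kif1c tail and at 129 and 38.4 TPM with the Kif1bα tail. The other transfections ran from 28.6 to 124 TPM in soma and from 12.2 to 52.4 TPM in neurites, so the Kif1c tail neurites lay well below the rest and the Kif1bα tail soma was only just the highest. Snord58b stood at 7.48 and 15.3 TPM against 129 and 70.3 TPM, and DT480 neurites held 170 TPM. Snord99 stood at 36.2 and 9.79 TPM against 102 and 26.9 TPM, the lowest of 5 with the Kif1c tail in both fractions.

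Snord16a (chromosome 9, 64175423 to 64175521, plus strand, in an intron of Rpl4) was higher in neurites with the Kif1c tail, at 104 TPM in soma and 129 in neurites against 187 and 18.2 TPM. The other neurite libraries held 75.6 to 114 TPM, so the Kif1bα tail neurites were the low library. Snord19 (chromosome 14, 31016206 to 31016281, minus strand, in an intron of Gnl3) stood at 8.94 TPM in Kif1bα tail neurites and at 36.4 to 123 TPM in the other 4 neurite libraries. Snord70 stood at 19.9 TPM in neurites with the Kif1c tail against 5.04 TPM. Snord100 (chromosome 10, 23785750 to 23785823, minus strand, in an intron of Rps12) went the other way, at 163 TPM in soma and 20.2 in neurites with the Kif1c tail against 105 and 98.6 TPM. Scarna8, a Cajal body RNA, and Snord73a were higher with the Kif1c tail in both fractions, with smaller ratios of 0.68 and 0.52.

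Host genes differed less than their snoRNAs, some in the same direction. The log2 ratios of Snhg6, host of Snord87, were −0.19 in soma and −0.30 in neurites, both below 0 like those of the snoRNA, and those of Rpl17, host of Snord58b, were −0.23 and −0.02. The log2 ratios of Rpl4 were −0.08 in soma and −0.02 in neurites, those of Rps12 0.12 and −0.08, with the signs of Snord100, and those of Gnl3 −0.14 and 0.0092. As groups, 53 C/D snoRNAs had a median localization difference of −0.28, with 28 past −0.25 and 17 past 0.25, and 30 H/ACA snoRNAs −0.28, with 15 past −0.25 and 6 past 0.25. The 47 miRNA precursors had −0.49, with 29 past −0.25 and 10 past 0.25. Over all genes 15.7% were past −0.25 and 14.5% past 0.25. The 391 noncoding genes together had a median of −0.21, near that of both snoRNA groups, and only 33.8% of them lay within 0.25 of 0.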

How the data were processed

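Per the labels, reads were demultiplexed with bcl2fastq 2.20 and assigned by kallisto 0.43.0 to the RefSeq mRNAs of mm10. The authors then put the TPM through cyclic loess, which evens out general shifts between libraries. The strand setting is not given in the sources used here. The deposited signal values are these linear TPM, whose sums differ between libraries. A second deposited table, the authors' log2 ratios for selected transcripts, was not used. Of 17300 rows, 5 plasmid rows and 3 rows without a gene name were left out. Rows were summed by gene, and genes with a mean of at least 5 TPM were kept. Ratios used a pseudocount of 0.1 TPM. Depth is unknown, so no interval is given.

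Genes named were the 10 protein-coding and 4 noncoding genes, at 20 TPM or more, highest and lowest by the smaller of both ratios and by localization difference, genes central to the study, and, for lists the text describes, 2 members by each measure, with Kif1a and Ptpn21, under the minimum or not analysed here, left out. The comparison, lists and rules were chosen with earlier results of these data known. Lists the text does not describe are in the plot of list medians. GC content, coding length, overlaps and shared 31-base words came from GENCODE vM21 transcripts on GRCm38. Procedures were tested on simulated data, with Python 3.11.15, numpy 2.4.6 and pandas 2.3.3.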

Additional observations from a re-analysis of the deposited data

Results flagged for a closer look

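For 7 named genes the soma and the neurite log2 ratios lay on opposite sides of 0 by at least 0.5 each. These differences between fractions were not tested, since each value is 1 library. Toward soma with the Kif1c tail, Slc2a6 had a localization difference of −1.07, Mir25 −2.97 and Snord100 −2.92. Toward neurites, Snurf had 2.99, Mir8115 3.77, Snord16a 3.66 and Snord70 3.11. For Slc2a6 the ratios were 0.51 and −0.55, and the gene shares no 31-base word with another. Snurf and Mir8115 share all of theirs with Snrpn and P2rx7.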

How the results depend on the processing

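No paired analysis was possible because each transfection and fraction has 1 library, and no replicate could be left out. Counts followed the genes admitted. With no minimum TPM, 271 genes were at least 2-fold higher and 240 lower in soma with the Kif1c tail, 229 and 257 in neurites, 517 and 509 passed 0.25 in both fractions, and 2814 and 2897 in localization. With a mean of at least 1 TPM the 2-fold counts were 141 and 121 in soma and 115 and 123 in neurites, with 310 and 317 in both fractions and 2192 toward neurites in localization. With at least 20 TPM they were 16 and 22 in soma and 12 higher in neurites, with 21 and 48 in both fractions and 568 and 716 in localization. With at least 5 TPM in each of the 4 libraries they were 18 and 23 in soma and 13 higher in neurites. Single transcripts gave 168 and 177 in soma, 124 and 152 in neurites, 344 and 364 in both fractions and 2259 and 2408 in localization. Protein-coding genes alone gave 24 and 15 in soma and 9 and 9 in neurites, and centring by GC content, chosen after the data were seen, 23 and 14 and again 9 and 9.

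Of 144 counts under an alternative 76 stayed within 1.5 times. Among 236 list medians 195, and among 374 values of named genes 373, moved by less than the spread of the other 3 transfections. Of the list medians that moved more, 20 came from rescaling the columns and 14 from GC centring. No value of a named gene and none of the larger list medians changed sign. Small ones could: that of the APC-dependent protrusion mRNAs went from −0.04 to 0.0012 after GC centring. Rescaling the columns moved the median localization difference of all genes by 0.041. Depth, replicates and the share of transfected cells limit what these values can show.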

Other observations

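The Rab GTPase family, read from symbols after the data were seen, leaned toward neurites with the Kif1c tail, unlike solute carriers and Tmem genes. Of 37 measured Rab genes, 9 had a localization difference past 0.25 (14.5% over all genes) and 2 past −0.25 (15.7%). Their median was 0.13, which became 0.07 after GC centring. In neurites the Kif1c tail was the highest of 5 transfections for 18 of them (21.0% over all genes), and in soma it was the lowest for 15 (21.8%). The 248 measured Zfp genes had a median of 0.01, with 42 past 0.25 and 26 past −0.25, against the same 14.5% and 15.7% of all genes.

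Localization ratios of the tails were less alike than those of most pairs. Across 9462 protein-coding genes Pearson's r between the Kif1c tail and the Kif1bα tail was 0.44, given as a description, and it ran from 0.45 to 0.61 for the other 9 pairs. A value of the same kind, 0.45, was found for the Kif1c tail with the Kif1bβ tail and for the Kif1bα tail with DMPKS.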
